A study of Mus musculus with 2 samples.

Results

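Arg1, Nos2, Retnla, Chil3, Mrc1, Mgl2, Clec10a and Il4ra are genes by which alternatively activated macrophages and their use of arginine are commonly described. They are 8 of the 32287 features of the count tables, were found there by symbol, and each symbol marked a row in both libraries. They were described in macrophages of the infarcted mouse heart, taken as cells with at least 30 UMIs (unique molecular identifiers, counted RNA molecules) of C1qa, C1qb and C1qc together per 10000 UMIs. C1q is a complement component that tissue macrophages make. This held for 7642 of 10125 cells of the GFPhi library and for 55 of 11959 cells of the GFPlo library, called C1q-high cells here.

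The mice carried p16-2A-CreER and R26-mTmG, in which tamoxifen lets cells that express p16 switch permanently from membrane tomato to membrane GFP. All mice had a myocardial infarction, received tamoxifen on day 5 and were sampled on day 7. Cells of the infarct zone were depleted of cardiomyocytes and sorted into a fraction of high GFP and one of low GFP, so the libraries share genotype, injury, tamoxifen and time and differ in the sort. Each fraction is 1 library, so there was no replicate and no test of any difference. The intervals below are exact 95% intervals for counting error only, and the number and ages of the mice and an uninjured or tamoxifen-free control were not among the labels used here. The label is set by p16-driven Cre, so the descendants of a labelled cell carry it too, and GFP does not report p16 at the time of sampling.

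IL-4 and IL-13 act on macrophages through receptors that contain IL-4Rα, the product of Il4ra, and switch on genes through STAT6. Among those genes in mice are arginase 1, the secreted proteins Retnla and Chil3, and the lectins Mrc1, Mgl2 and Clec10a, although each of them also answers to other signals. Arginase 1 and the inducible nitric oxide synthase Nos2 use the same substrate, arginine, and Nos2 is a common marker of classical activation by interferon-γ and bacterial products. In the heart, macrophages that settle before or soon after birth are known for Mrc1, Cd163, Folr2 and Lyve1, and monocytes supply many further macrophages after an infarct.

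Stretches of DNA just upstream of these genes are shown for the 3 whose levels the results turn on and which are in the RefSeq table used here (GRCm38.p6, the same assembly as mm10). That table held 5 of the 8 members, and Arg1, Nos2 and Clec10a are named only. The sequences run 5′ to 3′ on the strand of the gene and stop at the base before the annotated start. They are shorter than the 250 bases searched where a second annotation starts the gene further upstream, and then only bases before both starts are shown. Capitals mark letters that match a motif of STAT6 (TTC, 4 bases of any kind, GAA), C/EBP (TTGCNNAA) or PU.1 (GAGGAA) on either strand, and no motif match overlapped another.
Retnla, chr16:48842359-48842550, plus strand: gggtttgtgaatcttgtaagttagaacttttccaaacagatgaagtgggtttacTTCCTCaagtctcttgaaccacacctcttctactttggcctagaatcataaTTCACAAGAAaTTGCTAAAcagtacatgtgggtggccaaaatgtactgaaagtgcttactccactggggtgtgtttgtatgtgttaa
Mrc1, chr2:14229164-14229391, plus strand: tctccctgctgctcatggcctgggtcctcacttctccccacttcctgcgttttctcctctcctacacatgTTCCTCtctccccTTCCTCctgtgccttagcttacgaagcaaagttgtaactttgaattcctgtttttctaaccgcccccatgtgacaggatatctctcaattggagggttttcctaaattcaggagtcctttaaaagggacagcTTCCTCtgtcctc
Mgl2, chr11:70130107-70130328, plus strand: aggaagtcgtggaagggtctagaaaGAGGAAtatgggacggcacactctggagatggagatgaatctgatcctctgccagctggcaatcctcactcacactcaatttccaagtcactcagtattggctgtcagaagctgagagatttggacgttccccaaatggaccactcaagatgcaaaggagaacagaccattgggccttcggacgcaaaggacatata
Upstream of Retnla stood 1 match to each motif, TTCACAAGAA for STAT6, TTGCTAAA for C/EBP and TTCCTC, the reverse complement of GAGGAA, for PU.1. Mrc1 had 3 matches to the PU.1 motif and Mgl2 had 1, and neither had a match to the other motifs. Chil3 and Il4ra, searched over the same 250 bases but not shown, had no match to any of these motifs. Among the 250 bases upstream of 32851 genes of the same table, 5.85% held the STAT6 motif, 9.56% the C/EBP motif and 23.3% the PU.1 motif. Such a match is one of letters and not a measured binding site.

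The cells were checked first. All 8 macrophage markers were detected in the C1q-high cells of both libraries. C1qa, C1qb and C1qc are among them and set the threshold, so only Fcgr1, Csf1r, Adgre1, Ms4a7 and Mertk could have been absent. Detection anywhere in the summed cells is a weak check. The count table of GFPhi held 91343549 UMIs in 10430 barcodes and that of GFPlo held 104855204 UMIs in 12344 barcodes, and the kept cells had medians of 6899 and 7712 UMIs. The mGFP transcript did not follow the sort in these cells, at 30.3 CPM (summed UMIs of a gene scaled to a common total, the usual depth-scaled count) in GFPhi and 27.9 CPM in GFPlo. Around the C1q threshold, 350 GFPhi cells lay between 20 and 30 and 440 between 30 and 45 per 10000 UMIs, against 8 and 9 GFPlo cells. The libraries shared 94 barcodes, of which 70 were C1q-high in GFPhi and 0 in GFPlo, and leaving these out changed no call on the members. Cells with UMIs of at least 3 markers of 1 other cell type made up 1059 of the GFPhi C1q-high cells, 758 of them by the list for type 1 dendritic cells and 251 by that for fibroblasts. In GFPlo they made up 29 of the 55 C1q-high cells, 26 of them by the fibroblast list. Leaving these cells out kept all 15 subset calls and both calls between the fractions described below, and added Mrc1 in Gdf15 cells and Mrc1 between the fractions.

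Each C1q-high cell was put into a subset by fixed markers that leave out the 8 genes. GFPhi held 1296 cells of a resident subset (Cd163, Folr2, F13a1, Cbr2, Timd4, Lyve1), 1947 of a lipid-associated subset (Mmp12, Gpnmb, Spp1, Fabp5, Lpl), 1997 of an MHC class II subset (H2-Aa and related genes, Ccr2), 1877 of a Gdf15 subset (Gdf15, Cxcr4, Hmox1) and 525 cycling cells (Mki67 and related genes). Every one of these markers was highest in its own subset, which assignment by the same markers favours and which is therefore no independent check. GFPlo held 14, 3, 28, 0 and 10 cells of them, so that only its MHC class II subset, with 28 cells, entered a call against GFPhi.

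The resident subset carried most of this gene set. Arg1, Retnla, Mrc1, Mgl2 and Clec10a were at least 2-fold higher in resident cells than in the other C1q-high cells of GFPhi, with intervals that leave out 1. That is 5 of the 6 members with at least 10 CPM on one side, against 8.2% of all 7735 such features, and no member was lower, against 2.39%. The lipid-associated subset was its counterpart, with Arg1, Mrc1, Mgl2 and Clec10a lower, 4 of 5 measured members against 6.33% of features, and none higher, against 0.971%. Over the 5 subsets, 15 of the 40 combinations of member and subset passed this call, 7 higher and 8 lower. The 40 include combinations under 10 CPM on both sides, which could not be called. They are therefore not a base to set against the shares of features, which are given subset by subset. The subsets are compared with one another within 1 library, so each is part of the others' comparison group.

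**Figure D1:**
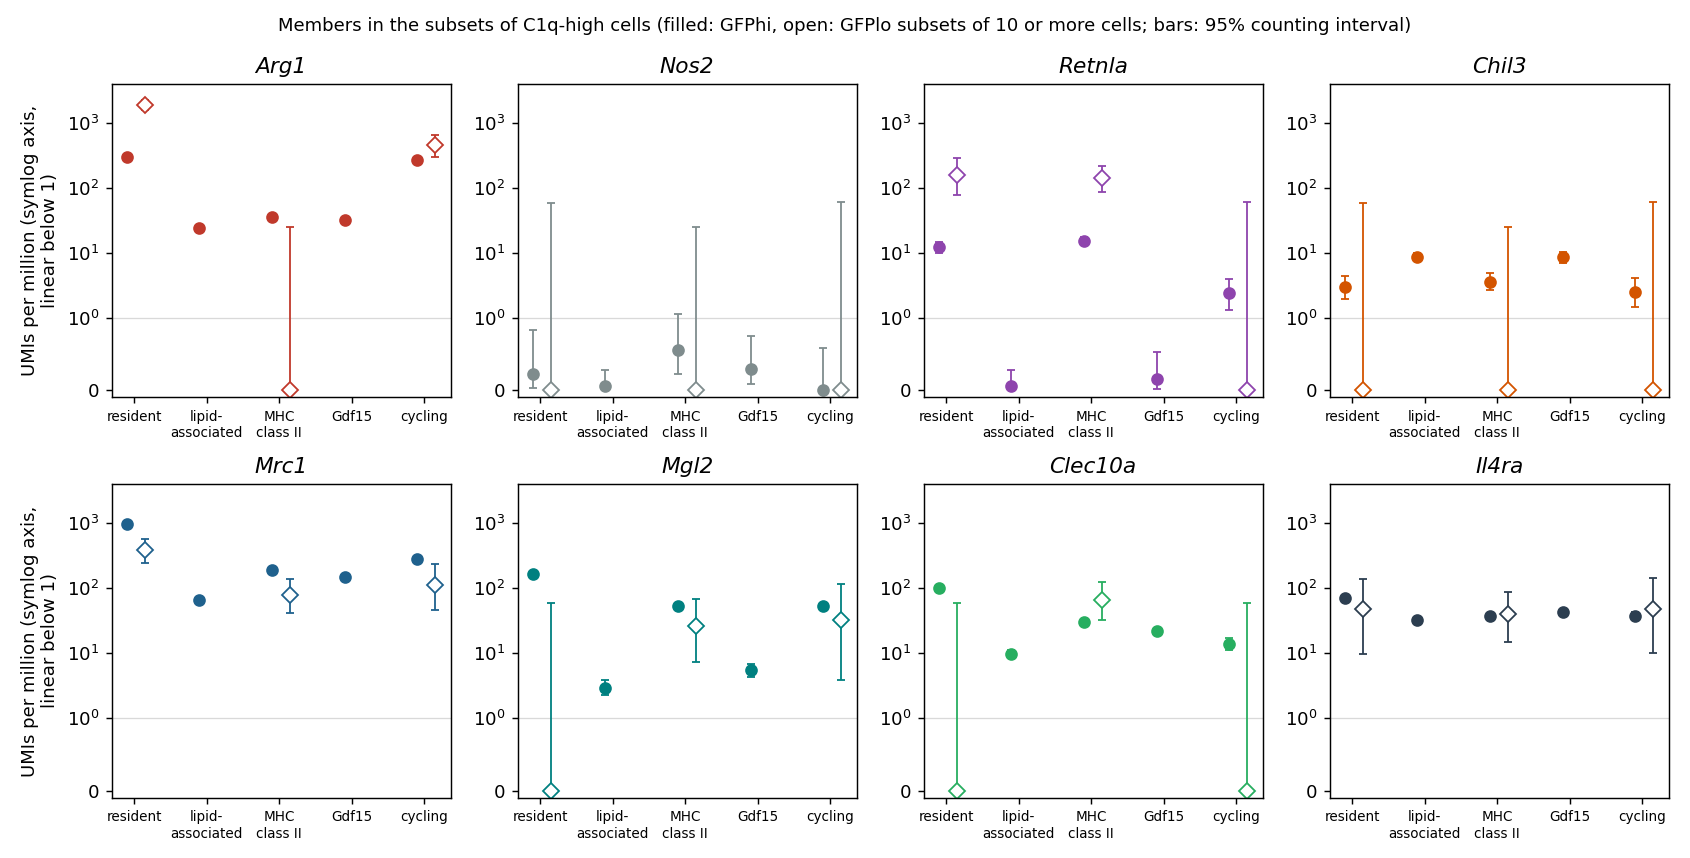
Level of each of the 8 genes (CPM, an axis that is linear below 1 and logarithmic above) in the 5 subsets of C1q-high cells, filled points for GFPhi and open diamonds for GFPlo subsets of 10 or more cells, with exact 95% Poisson intervals for counting error. In GFPhi, Mrc1, Mgl2, Clec10a and Il4ra peak in the resident subset, at 960, 163, 101 and 71.1 CPM, and Arg1 stands high in both the resident and the cycling subset, at 299 and 273 CPM.

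Arg1 encodes arginase 1, which turns arginine into ornithine and urea, and lies at chr10:24915221-24927484 on the minus strand of mm10. GFPhi C1q-high cells held 5662 Arg1 UMIs, 93.2 CPM (90.8 to 95.7), in 559 cells. That is 7.31% of the cells (6.74 to 7.92), and fibroblast-like cells of the same library, which are deeper at a median of 16720 UMIs, had an Arg1 UMI in 2.23%. By subset the Arg1 level was 299 CPM in resident, 24.2 in lipid-associated, 35.6 in MHC class II, 31.5 in Gdf15 and 273 in cycling cells. The resident and cycling levels stood well apart from the other 3. Against all other C1q-high cells, Arg1 was 5.07-fold higher in resident cells (4.81 to 5.35) and 3.76-fold higher in cycling cells (3.55 to 3.98). It was 5.21-fold lower in lipid-associated cells (4.74 to 5.73), 3.04-fold lower in MHC class II cells (2.76 to 3.36) and 3.52-fold lower in Gdf15 cells (3.19 to 3.90).

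The subset averages hide how few cells made Arg1. The 30 cells with the most Arg1 UMIs held 50.3% of them and the top 100 held 79.4%. A single cell held 259 UMIs. In the resident subset 197 cells (15.2%) had an Arg1 UMI, against 101 lipid-associated cells (5.19%). The UMIs are not spread evenly over cells here, so the Poisson intervals are narrower than the spread between cells.

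**Figure D2:**
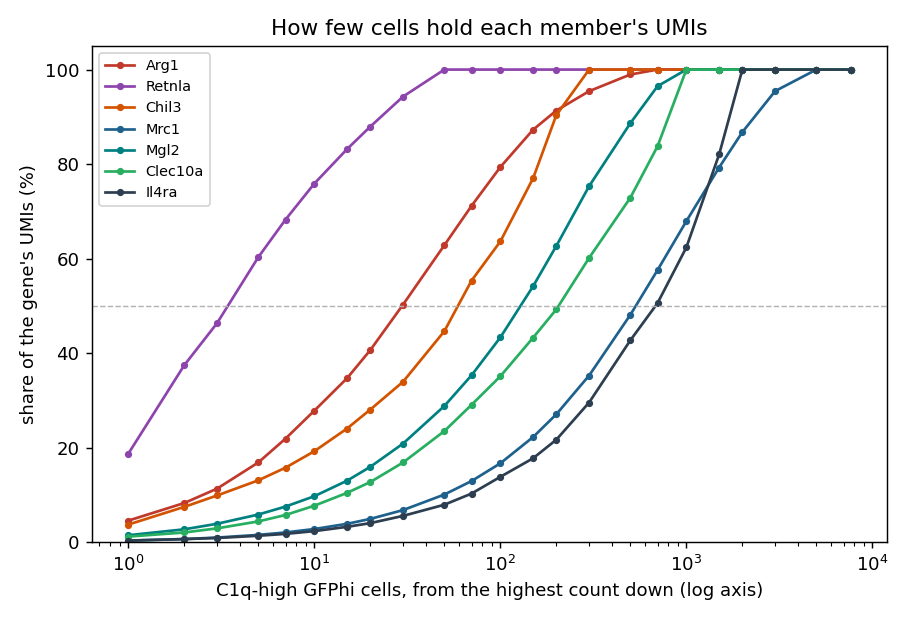
Share of each gene's UMIs (percent) held by the GFPhi C1q-high cells with the most of them, against the number of such cells (log axis), for the 7 genes other than Nos2. The 10 top cells hold 75.9% of Retnla UMIs and 27.8% of Arg1 UMIs, but only 2.80% of Mrc1 and 2.36% of Il4ra UMIs.

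Clustering the C1q-high cells without the 8 genes gave 15 clusters, and the Arg1 signal fell into 1 of them. Both cluster 5 (609 GFPhi cells) and cluster 6 (479 GFPhi cells) carried all 6 resident markers at least 2-fold above the other clusters. Cluster 6 held 80.5% of the Arg1 UMIs in 6.27% of the cells. Its Arg1 level was 981 CPM (953 to 1010), with 261 of 479 cells (54.5%) positive. Cluster 5 stood at 12.9 CPM (9.59 to 17.0), from 50 UMIs in 19 cells. Arg1 was thus 76.0-fold higher in cluster 6 than in cluster 5 (57.5 to 103), although both carried the resident markers. Cell by cell, 541 of the 609 GFPhi cells of cluster 5 and 281 of the 479 of cluster 6 fell into the resident subset. The rest of cluster 6 were 76 MHC class II, 72 Gdf15, 27 cycling and 23 lipid-associated cells. Outside cluster 6 the remaining GFPhi C1q-high cells averaged 19.7 CPM of Arg1.

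The lectins divided the same pair of clusters the other way. Mgl2 was 6.74-fold higher in cluster 5 than in cluster 6 (5.88 to 7.74), at 363 against 53.8 CPM. Mrc1 was 2.22-fold higher in cluster 5 (2.13 to 2.33), at 1449 against 652 CPM. Clec10a differed by 1.49-fold in the same direction, at 133 against 89.5 CPM, and Il4ra stood at 66.4 against 78.4 CPM. The clusters also differed in genes chosen here after their values were seen. Cluster 5 was higher in Cd163, a scavenger receptor for haemoglobin (296 against 82.0 CPM), and in Lyve1, a hyaluronan receptor (645 against 270 CPM). Cluster 6 was higher in Fn1, which encodes fibronectin (1459 against 68.5 CPM), in the acute-phase gene Saa3 (881 against 48.8 CPM) and in Ccr2, the receptor that brings monocytes out of the bone marrow (85.9 against 28.2 CPM). Over all GFPhi C1q-high cells Ccr2 stood at 62.0 CPM, between the levels of these clusters. Ly6c2, which marks classical monocytes, had 0 UMIs in cluster 5 and 1 in cluster 6. Plac8, another monocyte marker, stood at 18.1 CPM in cluster 6 (84 UMIs) and 1.81 CPM in cluster 5 (7 UMIs). Its level over all GFPhi C1q-high cells was 5.10 CPM. Since clusters were made from the expression of these same cells, the differences are descriptions and nothing was tested.

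**Figure D3:**
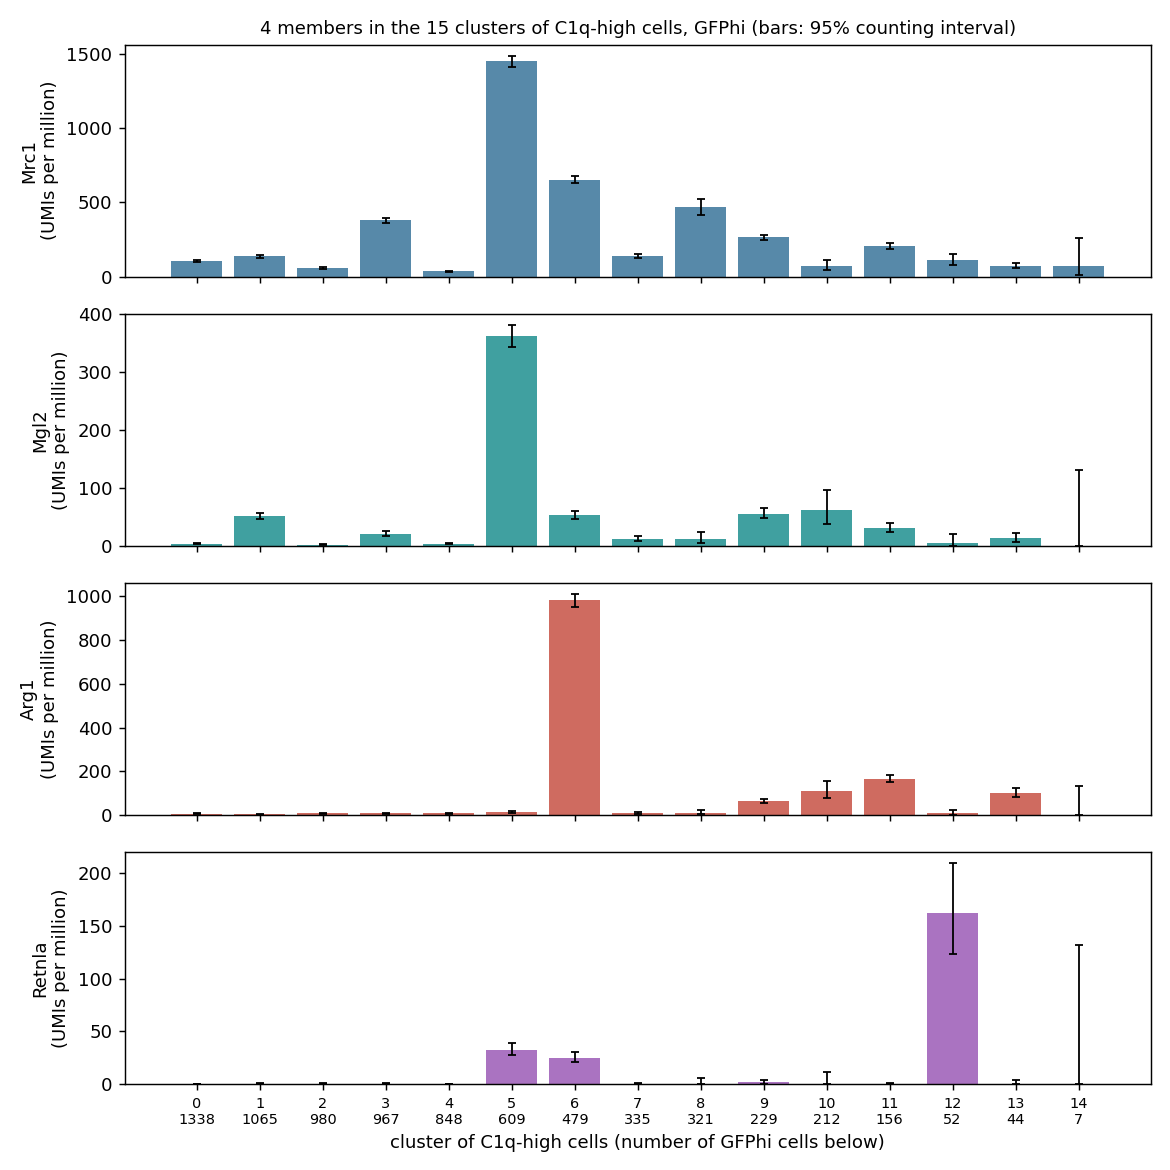
Level of Mrc1, Mgl2, Arg1 and Retnla (CPM, linear axes from 0) in the 15 clusters of C1q-high cells of GFPhi, with exact 95% intervals for counting error and the number of cells under each cluster. Arg1 peaks in cluster 6 at 981 CPM, while Mrc1 (1449 CPM) and Mgl2 (363 CPM) peak in cluster 5.

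The cycling Arg1 level came largely from the same cluster. Of the 1715 Arg1 UMIs of cycling cells, 1112 were in 27 cells that belong to cluster 6, at 2525 CPM. The 2 clusters led by cell cycle genes, 9 and 11, stood at 65.8 and 167 CPM of Arg1. When subsets were taken from whole clusters instead of single cells, Arg1 was no longer called higher in cycling cells, at a log2 ratio of 0.22 against 1.91.

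Cluster 6 also carried Y-linked RNA, with Ddx3y among its leading genes, and Xist and Y-linked UMIs showed cells of both sexes in the libraries. Of its GFPhi cells 102 had Y-linked UMIs and no Xist UMI (21.3%), against 154 of all 7642 C1q-high cells (2.02%). Over all C1q-high cells Arg1 was 370 CPM (342 to 399) in cells with Y-linked UMIs only and 80.0 CPM (77.6 to 82.3) in cells with Xist UMIs only. Within cluster 6 the order turned, at 474 CPM in the former and 1259 CPM in the 296 cells of the latter. Taking only cells with Xist and no Y-linked UMI left all 15 subset calls in place.

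Nos2, the inducible nitric oxide synthase (chr11:78920787-78960254, plus strand), was near the limit of detection in these macrophages. GFPhi C1q-high cells held 14 Nos2 UMIs in 9 cells, 0.230 CPM (0.126 to 0.387), and 7 of the 14 were in cluster 12, whose 52 cells also carry 6 endothelial markers. The 55 GFPlo cells held 0, which allows up to 10.5 CPM. The share of C1q-high cells with a Nos2 UMI, 0.118%, was below the 1.27% of fibroblast-like cells. The latter are deeper and held 10 Nos2 UMIs that may be their own, so they are no clean background. Whether the 14 UMIs came from the macrophages themselves was not tested. Only 15.2% of the GFPhi library's Nos2 UMIs were in C1q-high cells, which are 75.5% of its cells. No subset reached 10 CPM of Nos2, so it entered no call.

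Retnla encodes a small secreted protein of the resistin family and lies at chr16:48842551-48844461 on the plus strand. GFPhi C1q-high cells held 315 Retnla UMIs, 5.19 CPM (4.63 to 5.79), in 48 cells (0.628%), and 0 of 314 fibroblast-like GFPhi cells had one. The Retnla level was 12.2 CPM in resident, 15.1 in MHC class II and 2.38 in cycling cells, and the lipid-associated and Gdf15 subsets held 1 and 2 UMIs. Retnla was called 3.04-fold higher in resident cells (2.38 to 3.86) and 5.83-fold higher in MHC class II cells (4.63 to 7.37). These calls rest on a handful of cells. The 4 top cells reach at least 50% of the UMIs, with 59 UMIs in each of the top 2. In the MHC class II subset all 191 UMIs were in 11 cells, of which 1 cell of cluster 12 held 59, and 97 UMIs belonged to cells of cluster 6. Without the 10 cells with the most Retnla UMIs neither call held, and the MHC class II log2 ratio went from 2.54 to -0.80. With subsets taken from whole clusters it was -5.99 and the resident call remained. By cluster, Retnla was 32.8 CPM in cluster 5 (127 UMIs in 29 cells) and 25.2 CPM in cluster 6 (117 UMIs in 11 cells).

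Chil3, which encodes the chitinase-like protein Ym1 (chr3:106147554-106167564, minus strand), was low throughout. Its 374 UMIs in 236 cells gave 6.16 CPM (5.55 to 6.81), and GFPlo held 0 UMIs, which allows up to 10.5 CPM. The Chil3 level was 8.71 CPM in lipid-associated and 8.56 in Gdf15 cells, and 2.99, 3.63 and 2.54 in resident, MHC class II and cycling cells. The pattern was thus unlike that of the lectins, but no subset reached the minimum of 10 CPM. Of the 60-base stretches in the last 500 bases of Chil3 transcripts, 13.7% also occur in Chil4 or Gm6522, so reads of these genes may not have been told apart.

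Mrc1, the mannose receptor that takes up glycoproteins, lies at chr2:14229392-14332057 on the plus strand. GFPhi C1q-high cells held 15850 Mrc1 UMIs, 261 CPM (257 to 265), in 3722 cells (48.7%), against 1.91% of fibroblast-like cells. The Mrc1 level was 960 CPM in resident, 66.1 in lipid-associated, 191 in MHC class II, 148 in Gdf15 and 285 in cycling cells. Resident cells stood above all other subsets, and lipid-associated cells below them. Mrc1 was 6.66-fold higher in resident cells (6.45 to 6.87) and 5.34-fold lower in lipid-associated cells (5.05 to 5.66) than in the others. In Gdf15 cells it was 1.99-fold lower, just short of the 2-fold call. With every cell thinned to 1000 UMIs, 53.8% of resident and 6.48% of lipid-associated cells had an Mrc1 UMI, against 80.9% and 33.1% unthinned.

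Mgl2 encodes a lectin that binds terminal N-acetylgalactosamine (chr11:70130329-70137550, plus strand). Its 2557 UMIs in 790 GFPhi cells (10.3%) gave 42.1 CPM (40.5 to 43.8). The Mgl2 level was 163 CPM in resident, 2.97 in lipid-associated, 53.3 in MHC class II, 5.46 in Gdf15 and 53.1 in cycling cells. Mgl2 therefore separated the subsets more sharply than Mrc1 did. It was 7.42-fold higher in resident cells (6.86 to 8.03), 20.4-fold lower in lipid-associated cells (15.7 to 26.9) and 9.64-fold lower in Gdf15 cells (7.65 to 12.3). Cluster 5 held 54.9% of all Mgl2 UMIs in 7.97% of the cells, and 57.1% of its cells had one. Cluster 1, led by MHC class II genes, had 51.7 CPM of Mgl2 with 2.93 CPM of Arg1.

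Clec10a, a close relative and neighbour of Mgl2 on chromosome 11 (70156197 to 70170834, plus strand), followed it with smaller ratios. Its 1837 UMIs in 998 cells (13.1%) gave 30.2 CPM (28.9 to 31.7). The Clec10a level was 101 CPM in resident, 9.89 in lipid-associated, 30.4 in MHC class II, 21.6 in Gdf15 and 14.0 in cycling cells. It was 5.47-fold higher in resident cells (4.99 to 6.0), 4.03-fold lower in lipid-associated cells (3.47 to 4.71) and 2.30-fold lower in cycling cells (1.85 to 2.88). Of the 60-base stretches near the 3′ end of Clec10a transcripts, 13.1% also occur in Mgl2, so some reads of the pair may have been exchanged or dropped.

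Il4ra, the receptor chain shared by IL-4 and IL-13 (chr7:125552120-125579474, plus strand), varied least over the subsets. Its 2544 UMIs in 1957 cells (25.6%) gave 41.9 CPM (40.3 to 43.5). The Il4ra level was 71.1 CPM in resident, 32.2 in lipid-associated, 37.0 in MHC class II, 43.4 in Gdf15 and 38.0 in cycling cells. The resident ratio of 1.92 (1.75 to 2.11) stayed under 2-fold, as did all 4 other subset ratios. Fibroblast-like cells also carried Il4ra, with a UMI in 21.3% of them. Cluster 6 had an Il4ra UMI in 48.4% of its cells and cluster 5 in 29.7%, at medians of 8665 and 5854 UMIs per cell.

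In the other subsets fewer members differed. In MHC class II cells 1 of 6 measured members was higher, against 1.55% of features, and 1 lower, against 2.66%. In Gdf15 cells 2 of 5 were lower, against 2.42%, and none higher, against 0.166%. In cycling cells 1 of 5 was higher, against 8.63%, and 1 lower, against 1.69%.

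The members kept company to different degrees within cells. Over the 7642 GFPhi cells, which share 1 library and differ in depth, Pearson's r of log counts per 10000 UMIs was 0.354 for Mgl2 with Mrc1, 0.307 for Clec10a with Mrc1 and 0.243 for Clec10a with Mgl2. Arg1 stood apart, with r of 0.086 with Mrc1 and -0.020 with Mgl2. The genes nearest to Arg1 over these cells were Fn1 (r 0.541), Gda, a guanine deaminase (0.410), and the chemokine Ccl6 (0.393). Those nearest to Mrc1 were the clotting factor subunit F13a1 (0.641), the carbonyl reductase Cbr2 (0.538) and the transcription factor Maf (0.505). F13a1 and Cbr2 also led for Mgl2 (0.413 and 0.411), followed by Lyve1 (0.368), and for Clec10a (0.319 and 0.292), followed by the chemokine Ccl8 (0.287). F13a1, Cbr2 and Lyve1 are markers of the resident subset. For Retnla, Chil3 and Il4ra no gene reached an r of 0.2. Over 19 subsets and classes by library, the gene nearest in log2 CPM was Gm44751 for Arg1 (0.930), Lilra5 for Retnla (0.844), D630023F18Rik for Chil3 (0.972), Tnfrsf11a for Mrc1 (0.958), P2ry13 for Mgl2 (0.940), Gpr34 for Clec10a (0.942) and Hacd4 for Il4ra (0.911). Next came Fcna and Cln6 for Arg1, Mmp13 and Il12b for Retnla, Mmp8 and A530064D06Rik for Chil3, Prune2 and Slco2b1 for Mrc1, P2ry12 and Mapkapk2 for Mgl2, Aif1 and Tifab for Clec10a, and Gnpda1 and Daglb for Il4ra. These groups share 2 libraries and include the resident subset that stood high for most members.

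Among C1q-high cells the lectin levels also differed by C1q. C1q itself differed by subset, with C1qa at 5630 CPM in resident and 3035 CPM in lipid-associated GFPhi cells. Whether the orders by C1q go beyond the differences between subsets was not tested. From the GFPhi bin at 30 to 60 C1q UMIs per 10000 through those at 60 to 120 and 120 to 240 to the bin above 240, the Mrc1 level was 104, 138, 338 and 512 CPM. Over the same bins Mgl2 was 11.1, 25.8, 51.9 and 109 CPM and Clec10a 11.9, 19.0, 37.5 and 62.4 CPM. Arg1 did not share this order, at 136, 152, 57.2 and 45.05 CPM. Below the threshold the order did not hold for all of them. In the bin at 5 to 15 Mrc1 stood at 125 CPM and Mgl2 at 56.4 CPM, from 143 UMIs in 20 cells, both above their levels of 91.6 and 19.8 CPM in the bin at 15 to 30 and those in the bin at 30 to 60. The cells of these 2 lower bins were shallow, at medians of 1714 and 1643 UMIs.

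Other genes of the pathway were counted from lists that leave out the 8 members and the subset markers. In resident cells 6 of 14 measured alternative activation genes were higher, against 8.2% of all features, and 1 lower, against 2.39%, with a median log2 ratio of 0.77 against 0.24 over all features. Among the higher ones were the lectin Cd209f (13.2 against 0.0961 CPM), the eosinophil chemokine Ccl24 (77.1 against 7.88 CPM), Fn1 (577 against 146 CPM) and the scavenger receptor Stab1 (515 against 167 CPM). Il1rn, which blocks the IL-1 receptor, was the lower one, at 19.0 against 41.8 CPM. Classical activation genes were not the mirror image. Of 24 measured, 7 were higher in resident cells, against 8.2% of all features, among them the scavenger receptor Marco (6.97-fold) and the NAD-consuming enzyme Cd38 (4.72-fold). The cytokine Tnf and the chemokine Ccl5 were the 2 lower ones, against 2.39%. The median log2 ratio of these 24 genes was 0.18, against 0.24 over all features, so the list was not raised as a whole. In MHC class II cells 5 of 24 classical genes were higher, against 1.55% of all features, among them the IL-12 subunit Il12b (5.91-fold), Ccl5 (3.65-fold) and Il1b (2.91-fold), with a median log2 of 0.55 against -0.06 over all features. There 3 of 13 alternative activation genes were lower, against 2.66% of all features, namely Ccl24, Stab1 and Msr1, and none higher. In lipid-associated cells 3 of 13 alternative genes (Ccl24, Fn1, Il10) and 5 of 23 classical genes were lower, against 6.33% of all features. Il1rn was the 1 alternative gene that was higher there, by 2.19-fold, against 0.971% of features.

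Few genes around arginine and the receptor passed the call over the subsets. None of the 22 measured genes of arginine and polyamine metabolism passed the call in resident cells. Over all features 8.2% were higher and 2.39% lower there. The median log2 ratio of these 22 genes was -0.01, against 0.24 over all features. In cycling cells Sms, the spermine synthase (2.05-fold), and Ddah2, which breaks down methylated arginines (2.20-fold), were higher, 2 of 22 and near the 8.63% of all features, and Arg2, the mitochondrial arginase, was 2.56-fold lower. Ddah2 was 2.09-fold lower in MHC class II cells, 1 of 20 against 2.66%. Clusters 5 and 6, which carried the resident markers, differed in 4 genes of this list chosen after their values were seen. All 4 stood higher in cluster 6, where Arg1 peaks, than in cluster 5. The arginine transporter Slc7a2 was at 27.6 against 3.10 CPM, Ass1, which makes argininosuccinate, at 20.2 against 1.81 CPM, Arg2 at 12.1 against 2.07 CPM and Odc1, the ornithine decarboxylase, at 47.4 against 25.3 CPM. None of 8 measured genes of IL-4 and IL-13 signalling passed the call in resident, MHC class II, Gdf15 or cycling cells. Over all features 8.2%, 1.55%, 0.166% and 8.63% were higher in these subsets, and 2.39%, 2.66%, 2.42% and 1.69% lower. For a list of 8 genes, 0 calls is near those shares. Socs1 was 2.01-fold lower in lipid-associated cells, 1 of 8 against 6.33% of features. Stat6 stood at 32.2 CPM and Jak1 at 113 CPM in GFPhi C1q-high cells. The ligands were close to absent from these cells, with 10 Il4 UMIs and 0 Il13 UMIs, the latter allowing up to 0.0494 CPM.

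GFPhi and GFPlo were set side by side next, as the contrast of the sort. Arg1 and Retnla were lower in GFPhi, 2 of 6 measured members against 7.62% of all 8242 measured features, and none was higher, against 1.78%. Arg1 stood at 93.2 CPM in GFPhi and 513 CPM (433 to 603) in GFPlo, 5.50-fold lower in GFPhi (4.64 to 6.48). Retnla stood at 5.19 and 108 CPM (73.5 to 154), 20.9-fold lower in GFPhi (13.9 to 30.2). The GFPlo values come from few cells. Its 147 Arg1 UMIs lay in 8 cells, 46 of them in 1, and all 8 belonged to cluster 6, which made up 10 of the 55 GFPlo cells (18.2%, 9.08 to 30.9) and 6.27% of the GFPhi cells. Its 31 Retnla UMIs lay in 2 cells, with 21 and 10. Without the 2 top cells of each library for each member, the Arg1 log2 ratio moved from -2.46 to -1.57. GFPlo then held no Retnla UMI, as all of them lay in 2 cells, so the Retnla call was bound to be lost. Mrc1 (log2 1.21) and Mgl2 (log2 3.52) passed as higher in GFPhi, Mgl2 with 1 GFPlo UMI left. The cells left out were 2 of 55 in GFPlo but 2 of 7642 in GFPhi, which lowers the GFPlo levels more.

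The other members did not pass the call between the fractions. Mrc1 was 261 CPM in GFPhi and 150 CPM in GFPlo, from 43 UMIs in 17 cells, a ratio of 1.74 (1.29 to 2.40). Mgl2 was 42.1 and 20.9 CPM, a ratio of 2.01 (0.922 to 5.48) that rests on 6 GFPlo UMIs. The ratio was 0.788 (0.439 to 1.58) for Clec10a and 1.00 (0.571 to 1.94) for Il4ra, so at this depth differences within those bounds were not detectable. The median log2 ratio of the 6528 genes with at least 10 CPM in both libraries was -0.125, and relative to it Arg1 was -2.34 and Retnla -4.26.

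**Figure D4:**
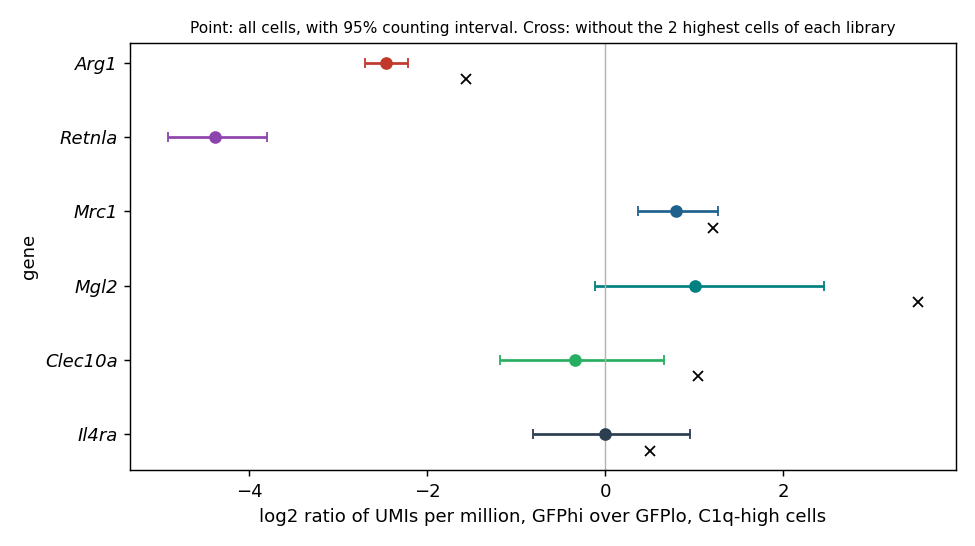
Log2 ratio of 6 members, GFPhi over GFPlo, in C1q-high cells: points with exact 95% intervals for counting error over all cells, and crosses without the 2 highest cells of each library, where Retnla has no cross because GFPlo then held no UMI of it. The crosses leave out 2 of 55 GFPlo cells but 2 of 7642 GFPhi cells, which lowers the GFPlo levels more. Arg1 (-2.46) and Retnla (-4.38) lie below 0 over all cells, while the intervals of Mgl2, Clec10a and Il4ra cross 0.

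The makeup of the fractions differed as well. MHC class II cells were 28 of the 55 GFPlo cells and 1997 of the 7642 GFPhi cells. Within that subset GFPlo held 0 Arg1 UMIs, which allows up to 20.01 CPM, and GFPhi held 452, 35.6 CPM, so Arg1 was not lower in GFPhi there. The resident cells went the other way, with Arg1 at 1893 CPM (1568 to 2265) in GFPlo, from 119 UMIs in 7 of 14 cells, beside 299 CPM in GFPhi. These resident cells differed in cluster. All Arg1 UMIs of GFPlo C1q-high cells lay in cluster 6, where GFPhi resident cells stood at 894 CPM. Another 541 of the 1296 GFPhi resident cells were in cluster 5, at 12.1 CPM, where GFPlo had 1 cell. The part of this mix in the difference was not tested. In cycling cells Arg1 was 453 CPM (301 to 655) in GFPlo, from 28 UMIs in 1 of 10 cells, beside 273 CPM in GFPhi. Within the MHC class II subset Mrc1 was 2.39-fold higher in GFPhi (1.36 to 4.63), 1 of 6 members against 1.48% of features. Clec10a was 2.19-fold lower (1.04 to 4.07) and Retnla 9.30-fold lower (5.63 to 14.6), the latter from 21 UMIs in 1 GFPlo cell, 2 of 6 against 6.58%. Summed fibroblast markers were 375 CPM in GFPhi and 1504 CPM in GFPlo C1q-high cells, and summed monocyte markers 75.4 and 394 CPM, and their part in the member ratios was not tested. Over all C1q-high cells 4 of 23 arginine genes were lower in GFPhi than in GFPlo, against 7.62% of all features. Among them were Slc7a2 (8.22 against 38.4 CPM) and Ddah1 (8.56 against 45.4 CPM), from 11 and 13 GFPlo UMIs. Slc7a1 and Ass1 rested on 7 and 10 GFPlo UMIs. Of 25 classical activation genes 4 were lower as well, against the same 7.62%, and none was higher. Of 14 alternative activation genes Stab1 (3.27-fold) and Trem2 (2.11-fold) were higher, against 1.78% of all features, and Fn1 (4.76-fold) and Ccl24 (3.53-fold) lower, against 7.62%.

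Members were also found outside the C1q-high cells, and in GFPhi only Nos2 had most of its UMIs there. Nos2 stood at 34.3 CPM (25.9 to 44.4) in 229 endothelial-like GFPhi cells, from 57 UMIs in 26 cells, and at 9.38 CPM in 1030 endothelial-like GFPlo cells. All 57 GFPhi UMIs were in 1 of 4 endothelial-like clusters, led by Esm1, Aplnr and Prnd, genes known from sprouting vessels. Mrc1 stood at 150 CPM (126 to 178) in GFPhi and 151 CPM (134 to 169) in GFPlo lymphatic endothelial-like cells, of which 51.1% and 32.2% had a UMI. The 2 fractions thus gave Mrc1 levels with overlapping intervals in this class.

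Chil3 was 1751 CPM (1559 to 1961) in 61 neutrophil-like GFPlo cells, from 301 UMIs in 6 cells at a median depth of 1399 UMIs. In 256 macrophage-like GFPhi cells below the C1q threshold it was 33.5 CPM (27.1 to 40.9), above each C1q-high subset. Il4ra was 34.2 CPM in GFPhi and 27.1 CPM in GFPlo mesothelial-like cells, beside 41.9 CPM in C1q-high cells, and 15.6 and 11.8 CPM in fibroblast-like cells. Clec10a was 96.9 CPM (67.1 to 135) in plasmacytoid dendritic-like GFPlo cells, from 34 UMIs in 20 of 37 cells. Arg1 was 5.82 and 7.97 CPM in mesothelial-like cells and 11.1 CPM in T cell-like GFPlo cells, from 36 UMIs in 11 of 517 cells. By share of the GFPhi library, C1q-high cells held 91.2% of Arg1, 96.9% of Retnla, 94.4% of Mrc1, 88.4% of Mgl2 and 94.0% of Clec10a UMIs, and 77.4% of Chil3 and 75.1% of Il4ra UMIs, at 75.5% of the cells. In GFPlo they were 0.460% of the cells and held 32.3% of Arg1, 40.3% of Retnla, 9.93% of Mrc1 and none of the Chil3 UMIs. Mesothelial-like GFPlo cells held 49.5% of Arg1, lymphatic endothelial-like cells 64.2% of Mrc1 and neutrophil-like cells 81.6% of Chil3 UMIs.

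**Figure D5:**
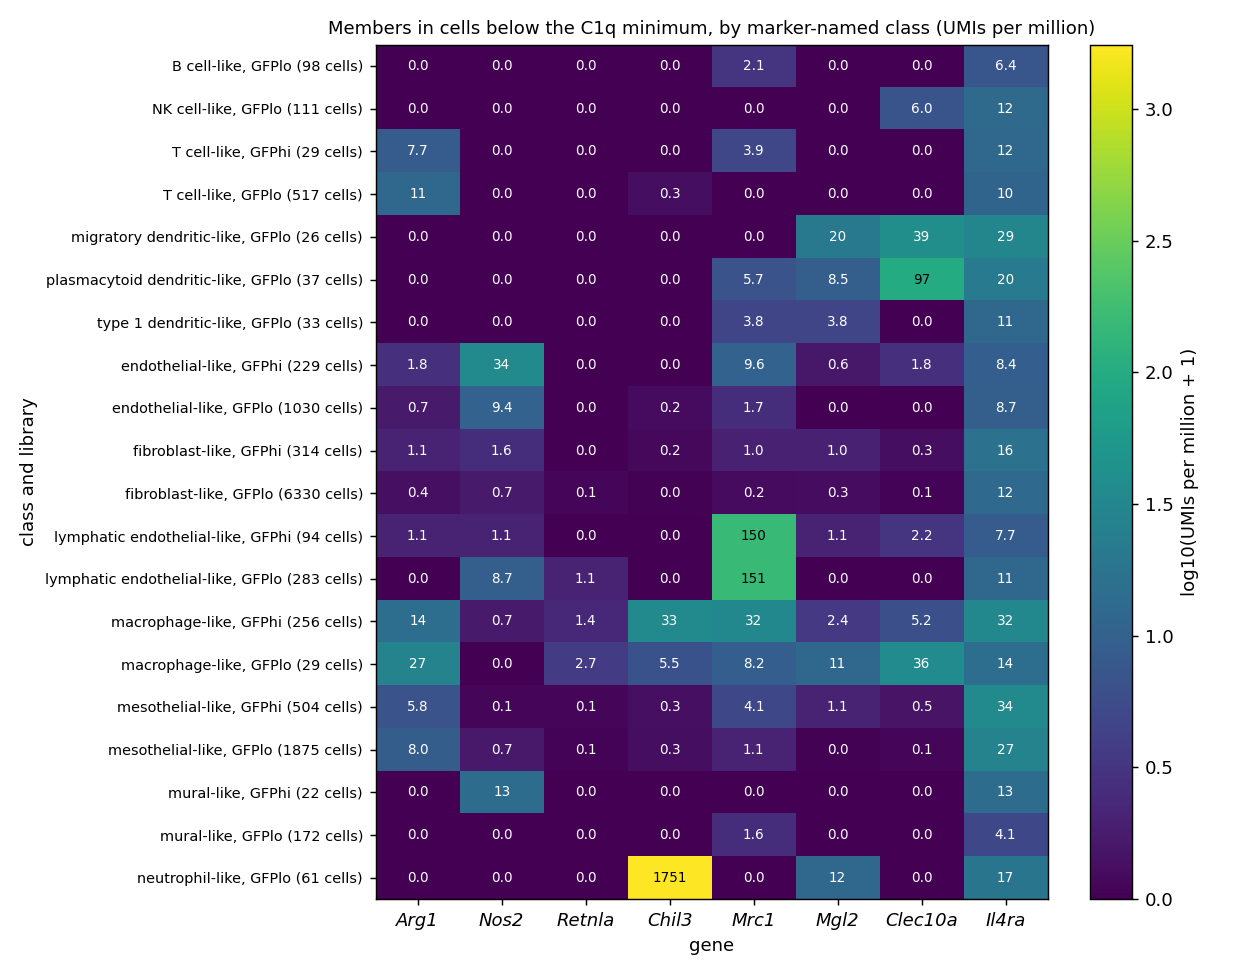
Level of the 8 members (numbers in CPM, colour as log10 of CPM + 1) in the marker-named classes below the C1q threshold, for each class and library with at least 20 cells. Nos2 appears in endothelial-like cells at 34.3 CPM (GFPhi), Mrc1 in lymphatic endothelial-like cells at 150 and 151 CPM and Chil3 in neutrophil-like cells at 1751 CPM.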

How the data were processed

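The 2 droplet libraries were used as raw UMI count tables, as deposited by the authors. The build is mm10 per the submitters' processing notes. No aligner, counting program or cell caller is named (not given in the sources used here), and the labels name both a SeekOne 3′ kit and 10x Genomics. Cells with at least 300 genes, 500 UMIs and at most 20% mitochondrial UMIs were kept. No doublet caller was run: cells with 3 markers of another class, and clusters carrying them, were left out as alternatives. Subsets came from per-cell marker scores. Leiden clusters (leidenalg 0.10.2, scanpy 1.11.5, 2000 variable genes without the members, 30 components, 15 neighbours) were named from 3 markers or more. Counts were summed per group as CPM, and all intervals are exact. A difference was called at 2-fold with an interval leaving out 1 and at least 10 CPM on one side, a count of 0 being read as 3. The ratio, its interval and the 2-fold call were tested on simulated Poisson sums, without the rule for a count of 0. Those sums did not hold the uneven spread of UMIs over cells, so the test does not cover genes held by few cells. Positions are GENCODE vM21, which held 32158 of 32287 feature identifiers.

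The members, lists and markers were chosen with earlier results of these data known. The members were always named, and so were the 3 genes of highest correlation with each member of at least 200 UMIs, over cells (where the highest reached 0.2) and over groups. List examples, leading genes and the cluster pair were chosen after their values were seen. Clec7a and Cxcl11 were not analysed here.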

Additional observations from a re-analysis of the deposited data

How the results depend on the processing

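No paired analysis was possible because each fraction has 1 library, and for the same reason no replicate could be left out. The 15 subset calls became 13 to 17 under 11 alternatives. Subsets from whole clusters lost Arg1 in cycling and Retnla in MHC class II cells, where the Retnla log2 ratio turned from 2.54 to -5.99. Leaving out the 10 top cells of each member lost both Retnla calls and gave -0.80. The mean over cells lost Clec10a in cycling cells. The 2 calls between fractions became 4 at a C1q minimum of 15, adding Chil3 and Mrc1, and 4 with the mean of cells, adding Mrc1 and Mgl2, and were 2 or 3 otherwise, with Arg1 lost within MHC class II cells and Retnla lost without the 2 top cells of each library. Of the 326 measured combinations of pathway gene and subset 46 were called, against 21 of 161 at a minimum of 50 CPM and 108 at 1.5-fold. The share of GFPhi C1q-high cells with an Arg1 UMI was 7.31%, and 2.84% and 2.65% in 2 random thinnings of cells to 1000 UMIs. Leaving out top cells, shared barcodes, mixed clusters or Y-linked cells was chosen after seeing the data. The 55 GFPlo cells limit every comparison of the fractions.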

Other observations

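Some clusters outside the C1q-high cells were left unnamed by the marker rule and held members at high levels. In a cluster of 26 GFPlo cells led by Alox15, Retnlg, F5 and Ccl6, at a median of 643 UMIs, Retnla stood at 1693 CPM, from 34 UMIs in 4 cells. A cluster led by Clec4b1, Mmp12, Cd209a and Mgl2 held 140 GFPhi and 50 GFPlo cells. Its Arg1 level was 207 CPM in GFPhi and 18.6 CPM in GFPlo, its Mgl2 level 142 and 70.6 CPM and its Clec10a level 23.3 and 167 CPM. A shallow cluster of 699 GFPhi and 168 GFPlo cells, at a median of 1168 UMIs, had 494 and 89.8 CPM of Mrc1.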
